A study of Mus musculus with 24 samples.

Results

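The proteasome genes of the mouse striatum are described here across a polysomal and a whole-lysate RNA compartment, 2 brain regions and 2 genotypes. The members are the 50 of 24079 gene rows whose symbol begins with Psm, a letter from a to g and a number. They comprised 19 genes of the core particle (Psma and Psmb), 6 ATPases of the base (Psmc), 14 Psmd genes, 6 activators or inhibitors (Psme and Psmf1) and 4 core assembly chaperones (Psmg). The last row, Psmc3ip, encodes a meiotic recombination protein that is not a proteasome subunit, and it entered none of the classes.

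The study used rpS6P-/- knockin mice, in which the phosphorylatable serines of ribosomal protein S6 are replaced by alanine in every cell from conception on, and their wild-type littermates, all on a mixed C57Bl/6/Sv129/ICR background. Males and females were untreated, their age is not given in the sources used here, and tissue of several mice was pooled for each replicate, so that the spread between replicates is one between pools. Nucleus accumbens (Acb) or dorsal striatum (DS) was homogenized, and RNA was taken both from the whole lysate and from the heavy polysomal fractions of a sucrose gradient, meaning mRNA that carried more than 4 ribosomes by the sample labels, whereas the methods of the study also include 4. With 3 replicates for each of the 8 groups, 24 poly(A) libraries were sequenced. Because the knockin changes codons and not the amount of mRNA, gene counts could not check the genotype labels.

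The proteasome degrades proteins tagged with ubiquitin. Its core is a barrel of stacked rings, outer alpha rings that gate the entrance and inner beta rings that hold the catalytic sites, and it is capped by a regulatory particle whose base contains a ring of ATPases that unfold the substrate and whose lid removes ubiquitin. The subunits are needed in fixed proportions, and in neurons the complex takes part in the turnover of synaptic proteins.

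Proteasome genes are known targets of the transcription factor Nrf1 (Nfe2l1), which binds antioxidant response elements. The letters TGACNNNGC, the core of that element, were searched on both strands of the RefSeq promoter windows (GRCm38.p6), which run from 250 bases before to 50 bases after each listed transcript start. Of the 50 members 42 had an entry, with 45 windows. The element was present in 6 of these 45 windows, or 13.3%, against 12.4% of all 32851 windows, so its letters were about as common among the members as elsewhere. Of the core genes it was found in 2 of 16 windows (Psmb5 and Psmb6), of the ATPases in 1 of 6 (Psmc6) and of the Psmd genes in 2 of 12 (Psmd9 and Psmd12), and the sixth was Psme4. CCAAT, the letters of the NF-Y binding site, were found in 15 of the 45 windows (33.3%, against 37.4% of all windows), of which 8 were among the 16 core windows, 2 among the 6 ATPase windows and 3 among the 12 Psmd windows. A match of letters is a description of the window and no evidence of binding. A core gene and an assembly chaperone in which the whole element precedes the listed start are shown as examples, with the 100 bases before that start, 5′ to 3′ on the strand of the gene, the element in capitals. Psmb5 encodes the catalytic beta subunit that cuts after hydrophobic residues, and its window is chr14:54617996-54618095 on the minus strand. Psmd9 encodes a chaperone that helps to assemble the ATPase ring, and its window is chr5:123228090-123228189 on the plus strand.
Psmb5: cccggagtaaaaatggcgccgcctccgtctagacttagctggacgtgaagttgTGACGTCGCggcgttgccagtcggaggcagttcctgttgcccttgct
Psmd9: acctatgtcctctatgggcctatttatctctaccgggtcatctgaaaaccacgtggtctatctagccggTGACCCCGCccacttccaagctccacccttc

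Libraries held between 9280589 and 34703044 reads assigned to genes. The members together took 0.319 to 0.383% of the reads of a lysate library and 0.534 to 0.656% of the reads of a heavy library. A single noncoding RNA, Bc1, took 15.2 to 26.1% of lysate reads and 0.897 to 3.85% of heavy reads, and the normalization used for the tests (TMM) is meant to absorb such a difference. Markers of medium spiny neurons, the principal cells of both regions, summed to 4224 to 7431 CPM (reads scaled to a common library size) in every library. The tissue holds many cell types, and fewer cells of a type and less RNA per cell cannot be told apart. Several members share sequence with pseudogenes or neighbours, which the authors' counting could split differently: the share of 50-base stretches of their transcripts also present in another gene was 69.3% for Psme2b, 59.3% for Psme2, 57.1% for Psmb5, 55.8% for Psmb3 and 55.4% for Psma5. Among the lower shares were 31.5% for Psma4, 28.1% for Psmb7, 26.4% for Psmd2 and 14.1% for Psme1. The values of all these genes are therefore less certain than those of Psmb2, Psmb10, Psmc2, Psmc5, Psmd8 or Psmf1, for which the share was 0%.

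The constitutive core genes were expressed at broadly similar levels. Levels were set per kilobase of the transcript with the longest coding sequence, and at ties the longest transcript. Ranks depend on this choice. Per kilobase, the highest constitutive core gene in the Acb lysate of wild-type mice was Psmb6, the caspase-like catalytic subunit, at 147.5 CPM per kb. The lowest was Psma2, an alpha ring subunit, at 40.7 CPM per kb. The transcripts used have 798 bases for Psmb6 and 2911 for Psma2. Unscaled, Psma2 had 93.5, 123 and 139 CPM there, above the 64.4, 70.2 and 73.2 CPM of Psmb5. The median per kilobase was 82.5 over the 14 genes Psma1 to Psma7 and Psmb1 to Psmb7. Over the 8 groups the highest of these 14 exceeded the lowest by 3.07 to 4.65 times. Psmb6 was the highest in every group other than the DS lysate of rpS6P-/- mice, where Psmb7, the trypsin-like catalytic subunit, was. Among the ATPases Psmc5 was the highest and Psmc6 the lowest per kilobase in each of the 8 groups, 136 and 44.6 CPM per kb in the Acb lysate of wild-type mice. The transcripts used for them have 1316 and 2234 bases. Unscaled, Psmc6 (86.2, 118 and 94.3 CPM) overlapped Psmc4 (70.7, 71.7 and 95.5 CPM) in those lysates. The ratio of Psmc5 to Psmc6 per kilobase ranged from 2.09 in the Acb heavy fraction of rpS6P-/- mice to 3.84 in the lysate of the same mice. The Psmd genes spread further, by 7.73 to 13.9 times, whereas the 8 lid genes among them spread by 2.77 to 5.85 times. The ubiquitin receptor Psmd4 or the lid subunit Psmd8 was the highest of the Psmd genes per kilobase, and the assembly chaperones Psmd5 or Psmd9, which leave the finished particle, were the lowest. The transcripts used for Psmd5 and Psmd9 have 4397 and 2597 bases, against a median of 1946.5 for the class.

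The inducible catalytic subunits, which replace their constitutive counterparts in immune cells, were scarce. Per kilobase, the mean level of Psmb8 was 1.0 to 1.75% of that of Psmb5 in the 8 groups, and that of Psmb9 was 0.177 to 0.677% of that of Psmb6. Psmb10 was the most abundant of the set, at 12 to 13.3% of Psmb7 in the lysates and 6.92 to 10.8% in the heavy fractions. Raw reads ran from 3 to 135 per library for Psmb8 and from 0 to 103 for Psmb9. Of the tissue-specific core genes, Psma8, known from the testis, had 0 reads in all 6 Acb lysates and 25 at most elsewhere, and Psmb11, known from the thymus, had 0 to 56 reads. Psme2b, an intronless copy of Psme2, had 0 to 8 reads. No fold change is given for these last 3 genes.

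Reads of core genes were enriched over reads of ATPase genes in the heavy polysomal fraction. The ratio of reads on the 14 constitutive core genes to reads on the 6 ATPase genes does not depend on how libraries are scaled, although it does depend on transcript lengths, which are the same in every library. In the Acb of wild-type mice this ratio was 1.77, 2.01 and 1.95 in the 3 lysates and 3.41, 3.29 and 3.71 in the heavy fractions of the same numbers. In rpS6P-/- mice it was 1.85, 1.90 and 1.79 in the Acb lysates and 2.38, 2.62 and 2.03 in the heavy fractions. The lysates of the genotypes overlapped in the Acb, whereas each of the 3 heavy libraries of rpS6P-/- mice lay below each of the 3 wild-type ones, with means of 2.34 ± 0.30 and 3.47 ± 0.22 (SD, n = 3 each).

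In the DS the ratio was 1.64, 1.74 and 1.59 in wild-type lysates and 3.07, 2.86 and 3.24 in wild-type heavy fractions. It was 1.56, 1.71 and 1.67 in rpS6P-/- lysates and 2.40, 2.79 and 3.24 in rpS6P-/- heavy fractions. Here the genotypes overlapped in both compartments. Over all 24 libraries the heavy fractions (2.03 to 3.71) and the lysates (1.56 to 2.01) did not overlap. The ratio of core to Psmd reads behaved alike, with 1.36 to 2.23 in heavy fractions and 1.11 to 1.32 in lysates. In the Acb heavy fraction it was 2.05, 1.98 and 2.23 in wild-type mice and 1.59, 1.80 and 1.36 in rpS6P-/- mice, again without overlap.

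**Figure D1:**
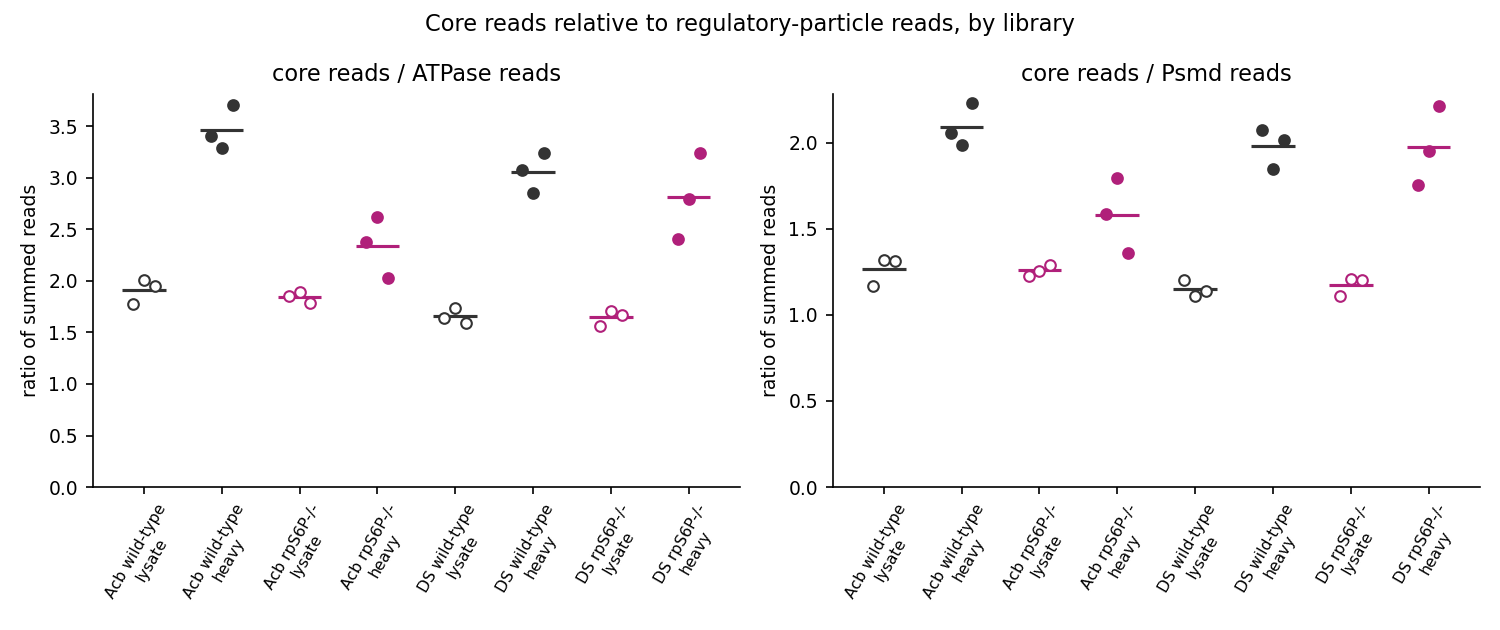
Ratio of reads on the 14 constitutive core genes (Psma1 to Psma7, Psmb1 to Psmb7) to reads on the 6 ATPase genes (Psmc1 to Psmc6, left) or on the 14 Psmd genes (right) in each of the 24 libraries; each point is 1 library (filled, heavy fraction; open, lysate), grouped by region, genotype and compartment, and lines are group means. In the left panel heavy fractions sit between 2.03 and 3.71 and lysates between 1.56 and 2.01, and the 3 Acb heavy libraries of rpS6P-/- mice lie below the 3 wild-type ones.

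Gene by gene, all 14 constitutive core genes passed the test as higher in the heavy fraction than in the lysate in each of the 4 comparisons (2 regions, 2 genotypes), and for none of them did the libraries of the compartments overlap. Of all genes, 22.1, 18.6, 17.9 and 20.4% were higher without overlap in the Acb of wild-type and rpS6P-/- mice and in the DS of wild-type and rpS6P-/- mice. Across all genes tested, the edgeR quasi-likelihood test with Benjamini-Hochberg adjustment at 0.05 called 23.1% in the Acb of wild-type mice (11.5% higher in the heavy fraction), 19.2% in the Acb of rpS6P-/- mice (9.50% higher), 24.8% in the DS of wild-type mice (12.8% higher) and 25.5% in the DS of rpS6P-/- mice (13.4% higher). The median log2 difference of the 14 genes was 0.91 (range 0.53 to 1.24), 0.78 (0.54 to 0.99), 1.06 (0.52 to 1.38) and 0.85 (0.62 to 1.19) in that order, against medians of all genes between 0.00 and 0.06.

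Psmb6 (chr11:70525324-70527858) had the largest difference of the core genes in the DS of both genotypes, but lay below the core median in the Acb of rpS6P-/- mice. Its level in the Acb of wild-type mice was 101, 110.0 and 142 CPM in the lysates and 246, 307 and 267 CPM in the heavy fractions, and in the DS it was 122, 125 and 115 against 380.3, 286 and 277 CPM. In rpS6P-/- mice it was 124, 122 and 138 against 208, 222 and 173 CPM in the Acb and 98.1, 104 and 109 against 211, 222 and 274 CPM in the DS. Every heavy library exceeded every lysate of its region and genotype. The log2 difference was 1.17 ± 0.16 (SE; edgeR adjusted p = 5.67e-07) and 0.64 ± 0.15 (adjusted p = 0.00237) in the Acb of wild-type and rpS6P-/- mice, and 1.38 ± 0.15 (adjusted p = 1.61e-10) and 1.19 ± 0.15 (adjusted p = 9.2e-09) in the DS.

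Psmb2, a structural beta subunit, had the highest core value in the Acb of wild-type mice, with 59.4, 76.7 and 87.2 CPM in the lysates and 167, 195 and 183 CPM in the heavy fractions. Its log2 difference there was 1.24 ± 0.16 (edgeR adjusted p = 2.95e-07), and it was 0.85, 1.08 and 1.14 in the Acb of rpS6P-/- mice and in the DS of wild-type and rpS6P-/- mice. At the other end, the alpha ring gene Psma1 had 70.2, 109 and 86.9 CPM in the wild-type Acb lysates and 115, 169 and 115 CPM in the heavy fractions. These groups did not overlap either, but the gap between the highest lysate and the lowest heavy library was narrow, and the log2 difference was 0.53 ± 0.18 (adjusted p = 0.0258). In the DS of wild-type mice the Psma1 difference of 0.52 lost its call without lysate replicate 2 (0.45). It also did when the trend with coding length, described below, was subtracted (0.11).

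Within the core, the beta ring genes had the larger differences in wild-type mice, with a median of 1.06 in the Acb and 1.08 in the DS against 0.72 and 0.77 for the alpha ring. In rpS6P-/- mice the medians were 0.78 (beta) and 0.81 (alpha) in the Acb and 0.89 and 0.74 in the DS. The inducible subunits did not pass the test in any of the 4 comparisons. Psmb10, whose lysate values of 13.9, 22.6 and 21.4 CPM in the wild-type Acb overlapped its heavy values of 20.4, 23.9 and 21.1 CPM, differed by 0.13 ± 0.24 there and by 0.53 ± 0.21 (adjusted p = 0.0581) in the wild-type DS.

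The ATPase genes were distributed more evenly between the compartments. Of the 6, 0 passed the edgeR test in the Acb of wild-type mice, 3 in the Acb of rpS6P-/- mice and 1 in the DS of each genotype, all higher in the heavy fraction, with median log2 differences of 0.06, 0.48, 0.09 and 0.20. Of all genes, 11.5, 9.50, 12.8 and 13.4% were called higher in that order. In the Acb of wild-type mice 1 of the 6 (Psmc4) had an unadjusted p under 0.05 (32.7% of all genes) and DESeq2 called 0 (25.3% of all genes). The range there was -0.21 to 0.44, below the lowest constitutive core value of 0.53. With the replicate number as a block, which pairs each heavy fraction with its own lysate, Psmc4 passed in the wild-type Acb as well (adjusted p = 0.0393 against 0.058 without the block), and so it did without lysate replicate 3 (0.59) or heavy replicate 3 (0.56).

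Psmc5 had 174, 150.5 and 211 CPM in the wild-type Acb lysates and 146, 182 and 149.7 CPM in the heavy fractions, so the compartments overlapped, and its log2 difference was -0.21 ± 0.15 (edgeR adjusted p = 0.345). In the other 3 comparisons it was 0.13 (Acb, rpS6P-/-), 0.01 and -0.12 (DS, wild-type and rpS6P-/-), none of which passed. Psmc4 was the ATPase called most often, with 89.1, 78.4 and 81.5 CPM in the DS lysates of wild-type mice and 131, 133 and 111 CPM in the heavy fractions. Its differences in the DS were 0.59 ± 0.15 (adjusted p = 0.00185) in wild-type and 0.47 ± 0.15 (adjusted p = 0.0131) in rpS6P-/- mice. The second of these lost its call without lysate replicate 2 (0.43), lysate replicate 3 (0.45) or heavy replicate 1 (0.39) of its group, and with the coding length trend subtracted (0.34).

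Psmc6 was the ATPase with the largest difference in the Acb of rpS6P-/- mice. It had 91.7, 65.1 and 92.5 CPM in those lysates and 145, 172 and 188 CPM in the heavy fractions, and the log2 difference was 1.01 ± 0.17 (edgeR adjusted p = 3.61e-05). In the Acb of wild-type mice its values of 86.2, 118 and 94.3 CPM in the lysates overlapped the 109, 144 and 104 CPM of the heavy fractions, with a difference of 0.21 ± 0.17 (adjusted p = 0.436). Besides Psmc6, Psmc2 (0.67) and Psmc4 (0.72) were called in the Acb of rpS6P-/- mice. Without heavy replicate 3 of that group the median of the 6 ATPases was 0.29 in place of 0.48.

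The Psmd genes ranged from clearly higher to clearly lower in the heavy fraction. Of 14, 4 were called higher and 2 lower in the Acb of wild-type mice, 10 and 0 in the Acb of rpS6P-/- mice, 5 and 1 in the DS of wild-type mice and 5 and 2 in the DS of rpS6P-/- mice, with medians of 0.24, 0.63, 0.24 and 0.23. Of the 8 lid genes, 3, 7, 3 and 3 were called, all higher, with medians of 0.24, 0.65, 0.25 and 0.23. Of all genes, 23.1, 19.2, 24.8 and 25.5% were called in that order, and 11.5, 9.50, 12.8 and 13.4% were called higher. The lid medians lay nearer to those of the ATPases than to those of the core in each comparison other than the Acb of rpS6P-/- mice.

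Psmd8, a lid subunit, followed the core. It had 64.4, 67.3 and 92.4 CPM in the wild-type Acb lysates and 171, 172 and 135 CPM in the heavy fractions, without overlap. Its log2 difference was 1.05 ± 0.16 (edgeR adjusted p = 7.14e-06) there and 0.86, 1.28 and 0.88 in the Acb of rpS6P-/- mice and in the DS of wild-type and rpS6P-/- mice. Psmd7, a structural lid partner of the deubiquitinase Psmd14, was called in all 4 comparisons (0.68, 0.64, 0.67 and 0.67), as were the lid subunit Psmd3 (0.49, 0.87, 0.56 and 0.61) and the chaperone Psmd9 (0.63, 0.63, 1.04 and 0.73).

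Psmd1 and Psmd2, the large scaffold subunits of the base, went the other way. Psmd2 had 182, 186 and 209 CPM in the wild-type Acb lysates and 119, 156 and 123 CPM in the heavy fractions, and in the wild-type DS 245, 267 and 234 against 165, 173 and 149.7 CPM. All heavy libraries lay below all lysates in both regions. The log2 difference was -0.59 ± 0.16 (edgeR adjusted p = 0.00559) and -0.61 ± 0.14 (adjusted p = 0.000543). In rpS6P-/- mice it was -0.62 ± 0.14 (adjusted p = 0.000426) in the DS, whereas in the Acb the lysates (204, 188 and 227 CPM) and heavy fractions (161, 159 and 227 CPM) overlapped at -0.19 ± 0.16 (adjusted p = 0.468). Psmd1 was called lower in the wild-type Acb (-0.55, adjusted p = 0.00817) and in the DS of rpS6P-/- mice (-0.53, adjusted p = 0.00277), with -0.25 and -0.35 in the other 2 comparisons.

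**Figure D2:**
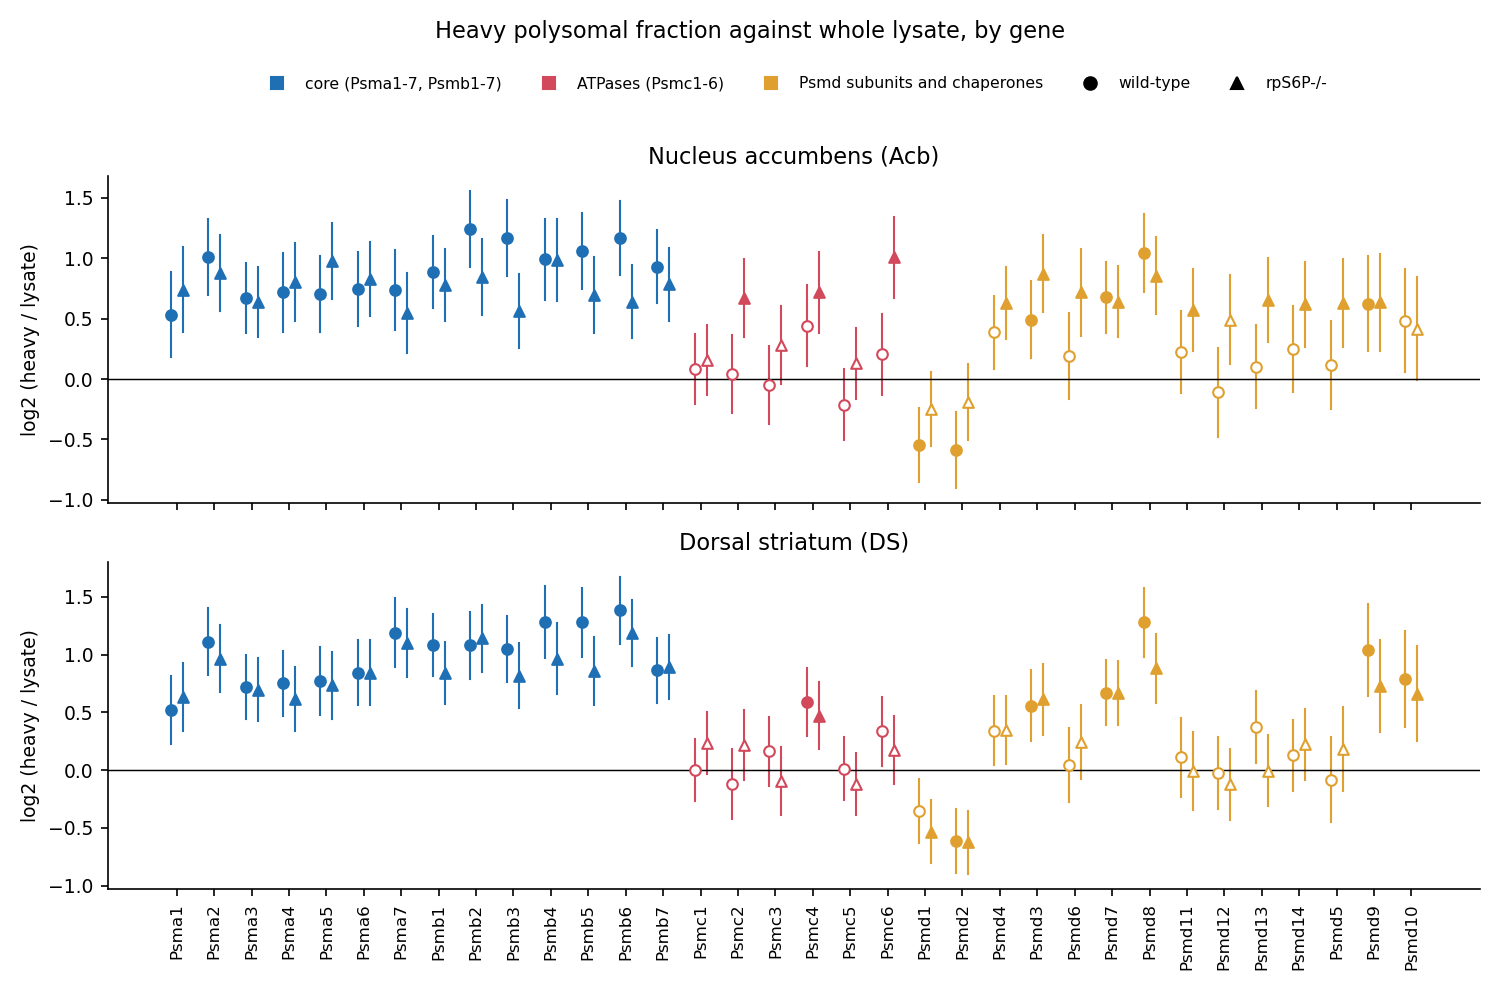
Log2 difference between the heavy polysomal fraction and the whole lysate for each gene of the constitutive core, ATPase and Psmd classes, with 1 panel for each region; circles are wild-type and triangles rpS6P-/- mice, points are edgeR estimates with approximate 95% intervals as bars, and filled points passed the test while open ones did not. The 14 constitutive core genes are all above 0, from 0.52 to 1.38, while Psmd1 and Psmd2 are below 0 in all 4 combinations.

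Compared within each replicate, the median log2 ratio of heavy to lysate CPM over the 14 constitutive core genes exceeded that over the 6 ATPases in 12 of 12 pairs of heavy fraction and lysate, by 0.27 to 1.0. The gap was 0.77 to 1.0 in the Acb of wild-type mice, 0.27 to 0.41 in the Acb of rpS6P-/- mice, 0.62 to 0.99 in the DS of wild-type mice and 0.54 to 0.87 in the DS of rpS6P-/- mice. Against the Psmd genes the core median was higher in 11 of 12 pairs, and the exception was an Acb pair of rpS6P-/- mice with a gap of -0.09. The Acb of rpS6P-/- mice was thus the group in which core and ATPases were least apart.

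The chaperones that build the core were enriched as well, in part. Psmg2, which pairs with Psmg1 to build the alpha ring, had 15.8, 13.7 and 19.1 CPM in the wild-type Acb lysates against 33.8, 48.3 and 41.4 CPM in the heavy fractions, and it was called in all 4 comparisons (1.30, 0.88, 1.06 and 0.92). Psmg1 and Psmg3 were called only in the DS, at 1.12 and 1.64 in wild-type and 1.15 and 0.78 in rpS6P-/- mice, and the test of the difference between regions in wild-type mice called neither. Psmg4, a low-count gene, was called lower in the Acb of rpS6P-/- mice (-1.23 ± 0.45, edgeR adjusted p = 0.0495) and in no other comparison. Of the activators that open the core gate, Psme1 was called in the Acb of rpS6P-/- mice (0.69), Psme2 in the DS (0.98 and 0.61), and the nuclear activator Psme3 in the Acb of wild-type mice (0.40, adjusted p = 0.0495, and 0.0652 with the replicate block).

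In total 22 of 50 members were called in the Acb of wild-type mice (20 higher, 2 lower), 30 of 50 in the Acb of rpS6P-/- mice (29 and 1), 25 of 49 in the DS of wild-type mice (24 and 1) and 26 of 49 in the DS of rpS6P-/- mice (24 and 2). The share of members called higher was above the share of all genes called higher in each. Cell type markers moved with the compartment too: of 10 microglial markers 5, 5, 6 and 5 were called higher and 1, 0, 1 and 0 lower in the same order, with sums of 136 to 309 CPM in lysates and 206.8 to 495 CPM in heavy fractions. Of 7 astrocytic markers 0, 2, 1 and 1 were called higher and 3, 2, 3 and 3 lower. Of 8 oligodendrocytic markers 4, 3, 3 and 4 were called higher and 2, 1, 1 and 1 lower. Of 10 medium spiny neuron markers 4, 4, 4 and 5 were called higher and 1, 1, 3 and 3 lower. Over all 56 markers tested, 14, 14, 16 and 16 were higher and 7, 5, 10 and 11 lower. Of all genes, 23.1, 19.2, 24.8 and 25.5% were called in either direction. The part of these cell types in the differences of the members was not tested. The 4 comparisons between compartments use the same heavy libraries as the comparisons between genotypes and regions that follow.

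The order of the classes followed the length of the coding sequence. Core genes have short coding sequences, with a median of 750 bases (range 603 to 906), ATPases have 1287 (1167 to 1425) and Psmd genes 1152 (666 to 2859), against 1227 over all genes. Over the 34 genes of the constitutive core, the ATPases and the Psmd class, Spearman's rho between coding length and the log2 difference was -0.80 in the Acb of wild-type mice, -0.34 in the Acb of rpS6P-/- mice, -0.80 in the DS of wild-type mice and -0.79 in the DS of rpS6P-/- mice. These correlations are across genes, which share libraries and are not independent replicates. The same relation held over all genes with a coding length, with rho of -0.45, -0.24, -0.47 and -0.53 over 15469 genes in the Acb and 15292 in the DS. It was also present among the 14 Psmd genes alone, at -0.67, -0.27, -0.78 and -0.72. Psmd1 and Psmd2, the longest of the 34 at 2859 and 2724 coding bases, had the lowest values, whereas Psmd7 to Psmd10, with 666 to 1059 bases, had differences of 0.42 to 1.28. Psmd14, the lid deubiquitinase, departed from this order, since at 930 bases its differences were 0.25, 0.62, 0.13 and 0.22.

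**Figure D3:**
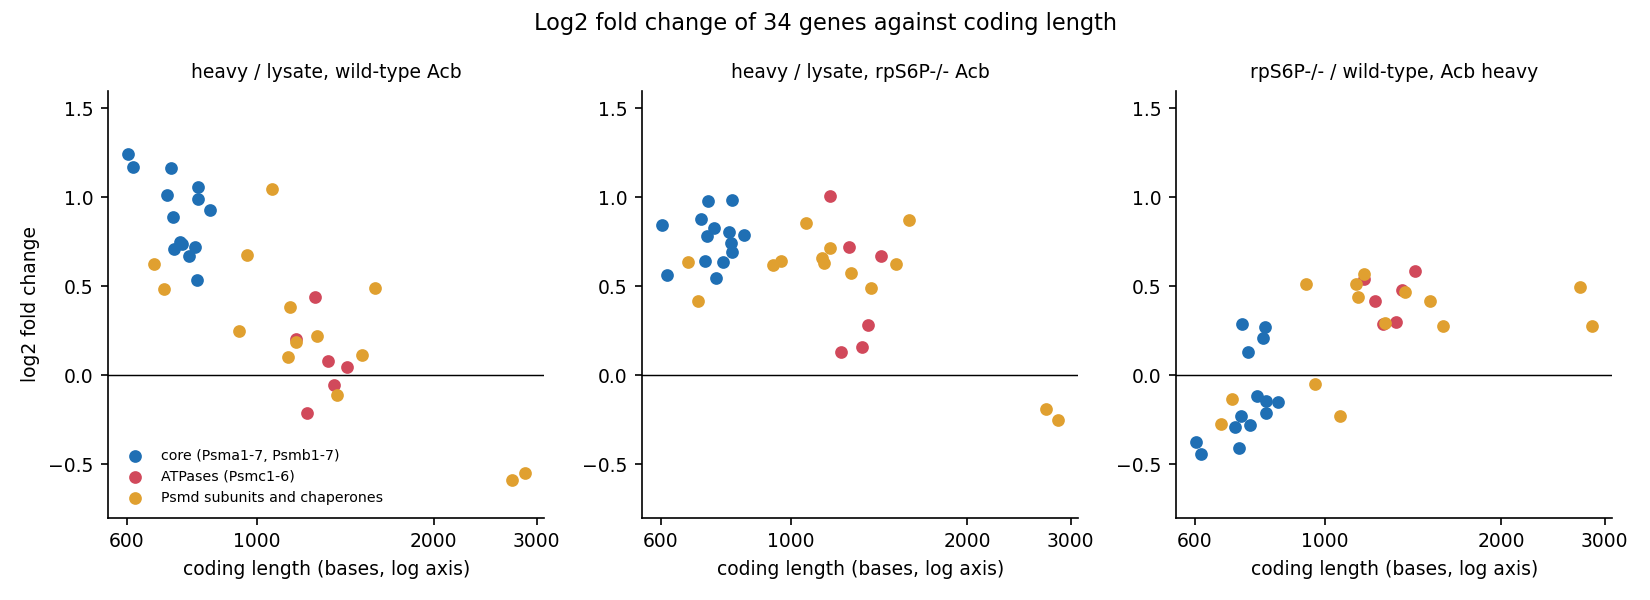
Log2 fold change of the 34 constitutive core, ATPase and Psmd genes (vertical) against their coding length in bases (horizontal, log axis) in the Acb, coloured by class; the left and middle panels compare heavy fraction with lysate in wild-type and rpS6P-/- mice, the right panel compares rpS6P-/- with wild-type mice in heavy fractions, and the horizontal line marks 0. In the left panel short core genes lie at the upper left and Psmd1 and Psmd2 at the lower right, and Spearman's rho is -0.80, -0.34 and 0.75 from left to right.

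When the trend with coding length over all genes was subtracted before the test, part of the core enrichment remained. The core medians were then 0.53, 0.51, 0.56 and 0.41 (Acb wild-type, Acb rpS6P-/-, DS wild-type, DS rpS6P-/-) and 8, 10, 10 and 9 of the 14 genes were called, against 16.5, 15.3, 17.2 and 14.8% of all genes. The ATPase medians became -0.03, 0.27, -0.01 and 0.07 and the Psmd medians 0.08, 0.36, 0.08 and 0.11. The core median was therefore still above the ATPase median in each comparison. Of the core genes that remained called, 7, 6, 7 and 6 were of the beta ring and 1, 4, 3 and 3 of the alpha ring. Psmd1 and Psmd2 were no longer called in any of the 4 comparisons, and Psmb6 (0.77, 0.39, 0.91 and 0.70) and Psmd8 (0.81, 0.58, 1.03 and 0.63) still were in all 4. The ATPase Psmc5, not called before, then passed as lower in the heavy fraction of the wild-type Acb (-0.38).

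Between genotypes, no member passed the edgeR test in either region or compartment. In the Acb heavy fraction 0 of 50 members were called (background 0% of 16227 genes), 17 had an unadjusted p under 0.05 (12 higher and 5 lower in rpS6P-/- mice, with 21.7% of all genes under this p), and DESeq2 called 6 (background 6.72%). The 6 were Psmc2, Psmc5, Psmc6, Psmd6 and the inhibitor Psmf1, all higher in rpS6P-/- mice, and Psmb3, lower. For 16 members, 8 higher and 8 lower, all libraries of a genotype lay on the same side of the other, as they did for 25.0% of all genes.

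The classes lay on different sides. The 6 ATPases had log2 differences of 0.29 to 0.59 (median 0.45), 10 of 14 Psmd genes were above 0 (median 0.36), and the constitutive core had a median of -0.18 (range -0.44 to 0.29), while the median of all genes was -0.01. All 7 beta ring genes were below 0 (median -0.23) and the alpha ring was divided, with 4 above and 3 below (median 0.13). No test over a class was made, and single genes did not pass, so that these are descriptions of 6 libraries. Coding length was again related to the differences, with a rho of 0.75 over the 34 genes and of 0.40 over all 15152 genes with a length. Cell type markers were compared in the same libraries, and 0 of 55 were called, with 12 at an unadjusted p under 0.05 and 7 called by DESeq2. All 7 astrocytic markers were above 0 (median 0.29, range 0.27 to 0.57), with sums of 1762 to 2619.6 CPM in wild-type and 2495 to 2859.5 CPM in rpS6P-/- mice, which overlapped. Of the 8 oligodendrocytic markers 4 were above and 4 below 0, from -0.95 (Mobp) to 0.56 (Cnp), and DESeq2 called 5. Their sums were 4688 to 6002 and 4753 to 5107 CPM. The part of these cell types in the differences of the members was not tested. With the length trend subtracted the medians of the members were -0.03 for the core, 0.36 for the ATPases and 0.25 for the Psmd genes.

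Psmc2 (chr5:21785275-21803787) had the largest ATPase difference. Its Acb heavy values were 109, 150.1 and 113 CPM in wild-type and 151, 165 and 227 CPM in rpS6P-/- mice, and the groups were separated by a margin smaller than the spread within each. The log2 difference was 0.59 ± 0.19 (edgeR adjusted p = 0.122, DESeq2 adjusted p = 0.0329). In the lysates of the same tissue Psmc2 had 104, 117 and 127 CPM in wild-type and 115, 108 and 117 CPM in rpS6P-/- mice, which overlapped. Psmd6, a lid subunit, had 61.7, 86.7 and 67.8 CPM in wild-type and 94.2, 88.9 and 129 CPM in rpS6P-/- Acb heavy fractions, with a difference of 0.57 ± 0.19 (edgeR adjusted p = 0.127, DESeq2 adjusted p = 0.0403).

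Psmb3, a structural beta ring subunit, lay on the opposite side, with 153, 187 and 177 CPM in wild-type and 118, 143 and 109 CPM in rpS6P-/- Acb heavy fractions. The log2 difference was -0.44 ± 0.16 (edgeR adjusted p = 0.142, DESeq2 adjusted p = 0.0459), without overlap between genotypes. Psmf1, an inhibitor that competes with activators for the core, had the lowest p of the members named here, with 28, 29.4 and 21.5 CPM in wild-type and 40.4, 36.6 and 44.9 CPM in rpS6P-/- mice and a difference of 0.67 ± 0.18 (edgeR adjusted p = 0.106, DESeq2 adjusted p = 0.0188). It was named after its values were seen.

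**Figure D4:**
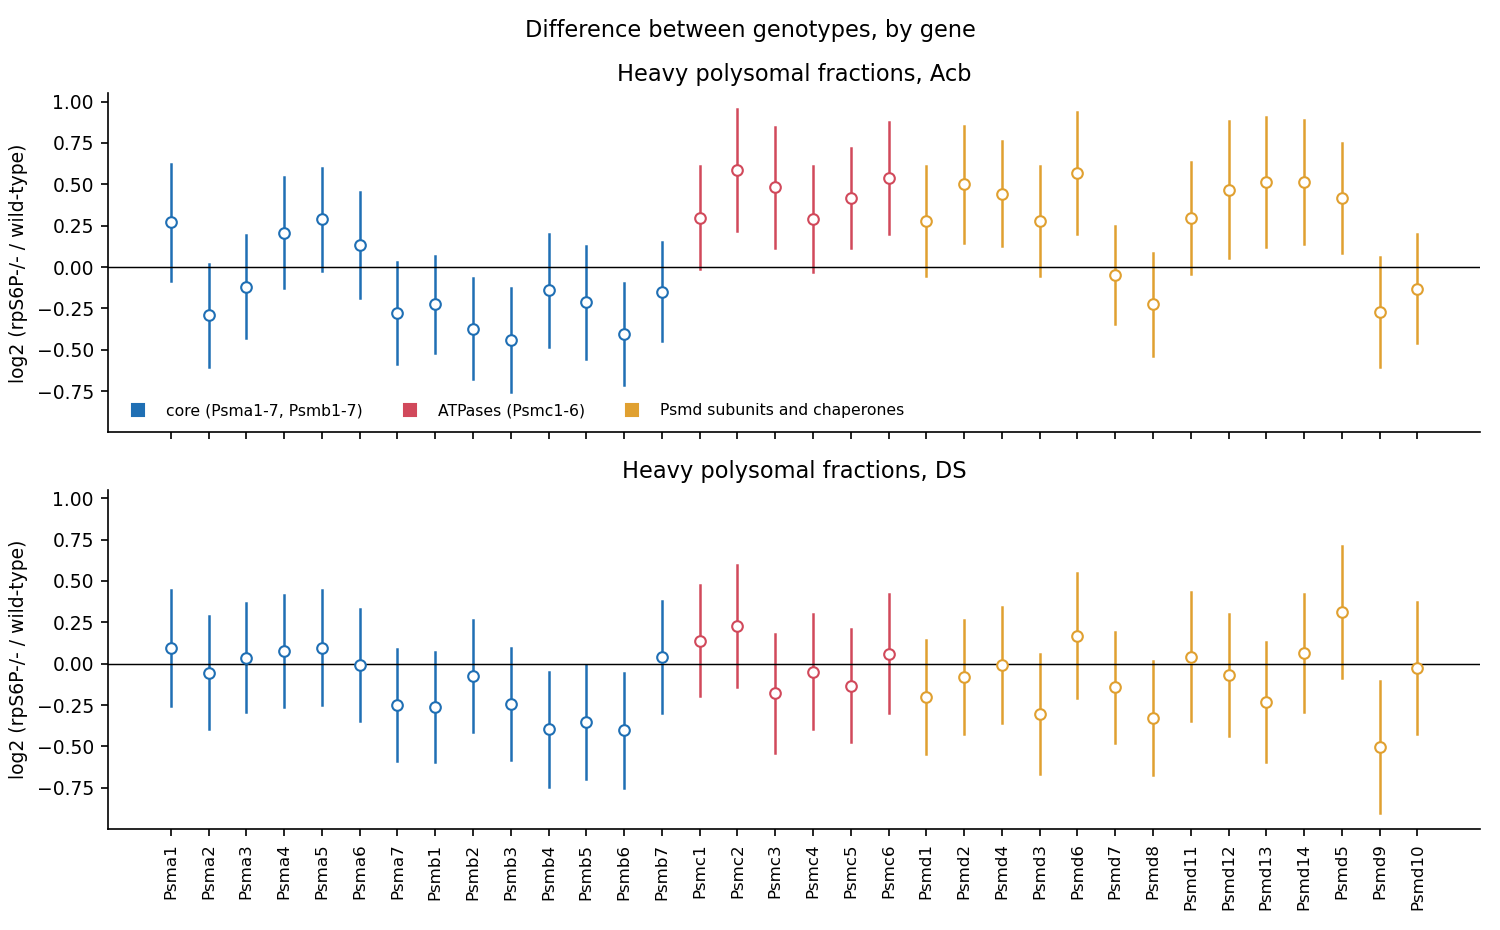
Log2 difference between rpS6P-/- and wild-type mice for each constitutive core, ATPase and Psmd gene in the heavy fractions of the Acb and of the DS, with 1 panel for each region; points are edgeR estimates and bars their approximate 95% intervals. No point passed the test, and in the Acb heavy fraction the 6 ATPases lie between 0.29 and 0.59 and the 7 beta ring genes between -0.44 and -0.14.

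In the other 3 comparisons of genotypes the medians of the core, the ATPases and the Psmd genes lay between -0.07 and 0.04, although that of the beta ring was about as low in the DS heavy fractions (-0.26) as in the Acb (-0.23). In the Acb lysates 0 of 48 members were called (background 0.00650%), 0 had an unadjusted p under 0.05 (2.96% of all genes) and DESeq2 called 0 (0.00650%), and the medians were 0.02 for the core, 0.04 for the ATPases and -0.04 for the Psmd genes. In the DS heavy fractions 0 of 49 were called (background 0.0440%), 3 had an unadjusted p under 0.05, all lower (6.42% of all genes), and DESeq2 called 0 (0.107%). The medians there were -0.06, 0.01 and -0.07, and Psmb6 was at -0.40 ± 0.18 (edgeR adjusted p = 0.772). In the DS lysates 0 of 49 were called (background 0.122%), 2 had an unadjusted p under 0.05, both lower (9.07% of all genes), and DESeq2 called 0 (0.609%).

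The interaction of genotype and compartment was tested as a measure of translational efficiency. It stands in for the ratio test of the study (Xtail), which was not run here. By that test the study reported altered efficiency of a subset of genes in the Acb, so the absence of calls below holds for the tests used here. The edgeR interaction test called 0 of 50 members in the Acb (background 0%), where 9 had an unadjusted p under 0.05 (6 higher, 3 lower, against 11.9% of all genes) and DESeq2 called 0 (0%). The medians were -0.12 for the core, 0.34 for the ATPases and 0.36 for the Psmd genes. Psmc6 had the highest ATPase value at 0.80 ± 0.24 (edgeR adjusted p = 0.243) and Psmb3 the lowest core value at -0.61 ± 0.22 (adjusted p = 0.307). In the DS the same test called 0 of 49 (background 0%), with 1 at an unadjusted p under 0.05 (4.90% of all genes) and 0 by DESeq2 (0%), and the class medians were -0.11, -0.12 and -0.05. The difference between the genotype effects of the regions in heavy fractions was tested too: 0 of 50 members were called (background 0.00592%), 8 had an unadjusted p under 0.05 (13.8% of all genes) and DESeq2 called 0 (1.40%), with medians of 0.03 for the core and 0.44 for both ATPases and Psmd genes. No single member therefore passed the test of this regional contrast.

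Between regions few members differed, and Psme1 was the exception throughout. Psme1 and Psme2 encode the subunits of the interferon-inducible activator of the core and lie close together at chr14:55578494-55581527 and chr14:55587440-55591101. Psme1 had 30.2, 35.7 and 39.0 CPM in the Acb lysates and 17.7, 23.3 and 15.1 CPM in the DS lysates of wild-type mice, and 37.8, 30.2 and 34.6 against 21.4, 20.1 and 15.7 CPM in rpS6P-/- mice. In the heavy fractions it had 45.5, 67.2 and 39.4 against 21.9, 30.03 and 26.3 CPM in wild-type and 54.5, 53.3 and 58.5 against 27.0, 24.0 and 29.2 CPM in rpS6P-/- mice. All Acb libraries exceeded all DS libraries in each of the 4 comparisons. The log2 difference (Acb minus DS) was 0.93 ± 0.22 (edgeR adjusted p = 0.00172) and 0.88 ± 0.22 (adjusted p = 0.00321) in wild-type and rpS6P-/- lysates and 0.94 ± 0.20 (adjusted p = 0.00274) and 1.08 ± 0.20 (adjusted p = 0.000445) in the heavy fractions.

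Psme2, its partner, did not follow. Psme2 had 21.8, 19.3 and 29.96 CPM in the Acb and 16.6, 15.5 and 13.7 CPM in the DS lysates of wild-type mice, without overlap, a difference of 0.66 ± 0.26 (edgeR adjusted p = 0.0939). The difference was 0.13, 0.09 and -0.14 in the other 3 comparisons (rpS6P-/- lysates, wild-type and rpS6P-/- heavy fractions). Psme2 reads are shared in part with Psme2b, so its values are less certain.

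Cell type markers moved with the regions. Of 10 microglial markers, 8 were called higher in the Acb in wild-type lysates, 8 in wild-type heavy fractions, and 3 and 2 in rpS6P-/- lysates and heavy fractions. Their summed level in lysates was 250 to 309 CPM in the Acb and 136 to 161 CPM in the DS of wild-type mice, and 232 to 261 and 163 to 183 CPM in rpS6P-/- mice. The lowest of these markers, Trem2, was present at 4.1 to 6.9 CPM on average in the wild-type lysates. Of 7 astrocytic markers 5, 2, 4 and 5 were called higher in the Acb (wild-type and rpS6P-/- lysates, wild-type and rpS6P-/- heavy fractions). Their sums in wild-type lysates were 2338 to 2851 CPM in the Acb and 1702 to 1822 CPM in the DS. Of 10 medium spiny neuron markers 2, 2, 2 and 1 were called higher and 6, 4, 1 and 3 lower in the same order. Of 8 oligodendrocytic markers 4, 2, 1 and 2 were called higher and 0, 0, 0 and 1 lower. Of 7 markers of cortical excitatory neurons, 6 were called lower in the Acb in all 4 comparisons, with sums of 72 to 217 CPM in the Acb and 755 to 1023 CPM in the DS over both compartments and genotypes. The part of these cell types in the Psme1 difference was not tested.

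**Figure D5:**
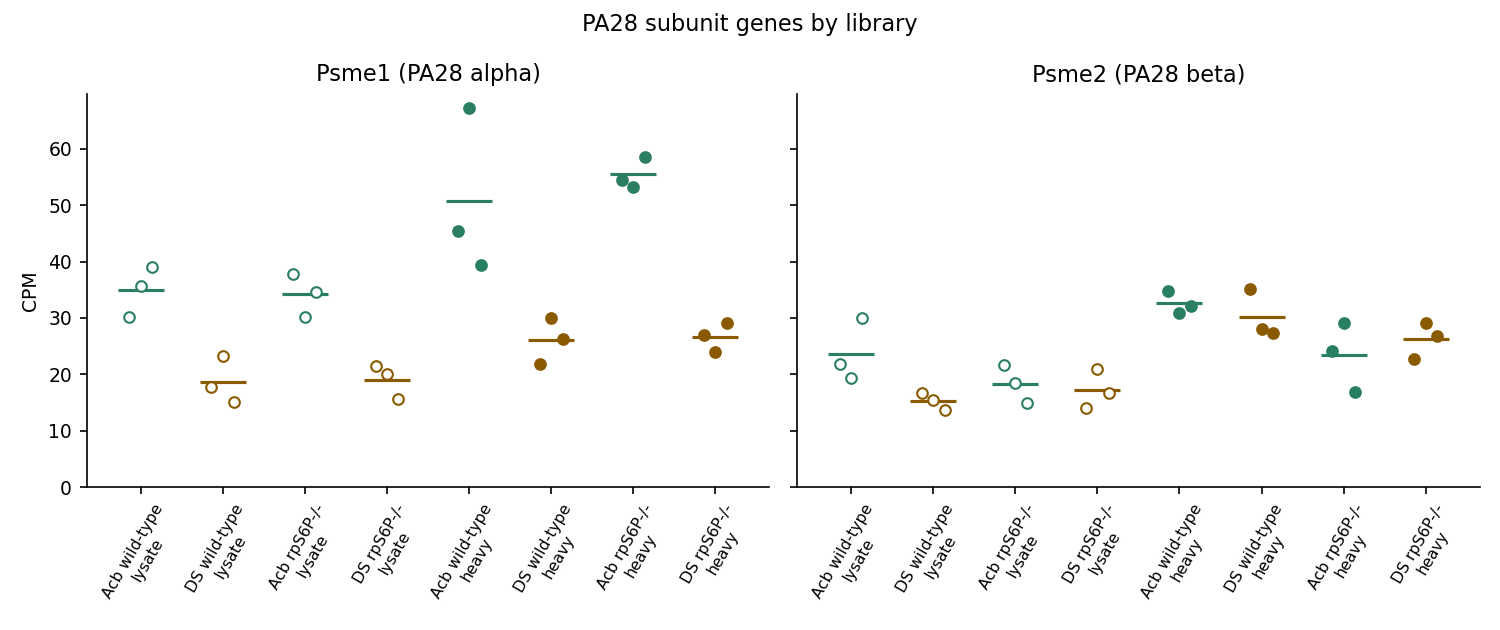
Level (CPM) of the activator genes Psme1 and Psme2 in each of the 24 libraries, grouped by region, genotype and compartment; each point is 1 library (filled, heavy fraction; open, lysate), and lines are group means. Psme1 lies between 30.2 and 67.2 CPM in the Acb and between 15.1 and 30.03 CPM in the DS, and over all 24 libraries the regions overlap for Psme2.

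Apart from Psme1 the calls were few and differed from comparison to comparison. In lysates 2 of 49 members were called in wild-type mice (background 12.1%), Psme1 and Psmd2 (-0.34 ± 0.11, edgeR adjusted p = 0.0311), and 2 of 49 in rpS6P-/- mice (background 10.6%), Psme1 and Psmc6 (-0.45 ± 0.14, adjusted p = 0.0212). In heavy fractions 3 of 50 were called in wild-type mice (background 8.93%), Psme1, Psmb10 (-0.62 ± 0.19, adjusted p = 0.0374) and Psmc5 (-0.50 ± 0.16, adjusted p = 0.0487). In the heavy fractions of rpS6P-/- mice 3 of 50 were called (background 17.6%), Psme1, the activator Psme4 (-0.54 ± 0.17, adjusted p = 0.0278) and Psmf1 (0.63 ± 0.21, adjusted p = 0.0408). Psmb10 had a similar value there (-0.52 ± 0.19, edgeR adjusted p = 0.0569) and passed with DESeq2. It had 19.4, 19.5 and 19.2 CPM in the Acb and 24.0, 31.9 and 28.8 CPM in the DS. The share of members called lay below the share of all genes called in each comparison of regions. With the replicate number as a block the wild-type calls of Psmb10 and Psmc5 were lost (edgeR adjusted p = 0.0671 and 0.0706).

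Psme1 kept its call in each comparison of regions whichever library was left out, and none of the other calls did. Psmd2 lost its call without Acb lysate 1 or 2 (-0.31 and -0.32) or DS lysate 1 or 2 (-0.36 and -0.29) of wild-type mice. Psmc6 lost it without Acb lysate 2 (-0.30) or DS lysate 1 or 2 (-0.47 and -0.41) of rpS6P-/- mice. In heavy fractions Psmb10 lost it without each of the 6 libraries in turn (-0.69 to -0.55), and Psmc5 without Acb library 1 or 3 (-0.44 and -0.43) or DS library 1 or 2 (-0.37 and -0.44). In rpS6P-/- mice Psme4 lost it without any single heavy library other than Acb library 2 (-0.56 to -0.46), and Psmf1 without Acb library 1 or 3 (0.63 and 0.54) or DS library 2 or 3 (0.53 and 0.58).

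Class medians differed little between regions for the core and more for the other classes. The core medians were -0.00, 0.04, -0.07 and -0.09 (wild-type and rpS6P-/- lysates, wild-type and rpS6P-/- heavy fractions), those of the ATPases -0.21, -0.10, -0.21 and 0.20, and those of the Psmd genes -0.09, -0.07, -0.10 and 0.33. The ATPases and Psmd genes had medians above 0 only in the heavy fractions of rpS6P-/- mice, which are the libraries described above. In lysates the ratio of core to ATPase reads did not overlap between regions in either genotype, with 1.77 to 2.01 in the Acb and 1.59 to 1.74 in the DS of wild-type mice and 1.79 to 1.90 and 1.56 to 1.71 in rpS6P-/- mice. Whether the enrichment in heavy fractions of wild-type mice differed between regions was tested directly: 0 of 50 members were called (background 0%), 3 had an unadjusted p under 0.05, all lower, against 4.60% of all genes, and DESeq2 called 0 (0.00599%).

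Genes that work with the proteasome were compared from a list of 51 symbols (ubiquitin precursors, conjugating enzymes, associated factors, shuttles and transcription factors), of which 45 were tested. In the comparison of compartments 8 were called higher and 6 lower in the Acb of wild-type mice, 8 and 7 in the Acb of rpS6P-/- mice, 14 and 8 in the DS of wild-type mice and 14 and 9 in the DS of rpS6P-/- mice, against 23.1, 19.2, 24.8 and 25.5% of all genes called in either direction, with medians of 0.01, 0.01, 0.15 and 0.12. Pomp, the maturation factor of the core and a short protein, had the highest value in the Acb of wild-type mice (1.10) and was at 1.40 in the DS. Uba1, the main ubiquitin-activating enzyme and a long protein, had the lowest value in the Acb (-1.11), followed by Vcp, the segregase that pulls substrates from complexes (-1.0). None of the 45 was called by edgeR between genotypes in any of the 4 comparisons or in the tests of interaction. In the Acb heavy fraction 18 of them had an unadjusted p under 0.05 (21.7% of all genes) and DESeq2 called 8 (6.72% of all genes), and in the other 3 comparisons of genotypes 0 to 5 had such a p and DESeq2 called 0 or 1. In the tests of interaction these counts were 1 to 13 and 0 to 2. Between regions 2 were called higher and 3 lower in wild-type lysates, 2 and 3 in rpS6P-/- lysates, 0 and 4 in wild-type heavy fractions and 2 and 8 in rpS6P-/- heavy fractions. The shares of all genes called there were 12.1, 10.6, 8.93 and 17.6%.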

How the data were processed

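The authors aligned reads of poly(A) libraries to mm10 with TopHat 2.0.13 and Bowtie 2.2.3, kept alignments with at most 3 mismatches and counted reads per gene with HTSeq 0.6.1p1, and they deposited raw read counts per gene for each of the 24 libraries. From these counts, genes that reached 15 reads in all libraries of a fit together were tested with edgeR 4.0.16 (TMM, quasi-likelihood F test) in R 4.3.3, with Benjamini-Hochberg adjustment over all genes tested and a threshold of 0.05. Compartments were compared within the 12 libraries of a region, regions within the 12 libraries of a compartment and genotypes within 6 libraries. SE is the log2 difference divided by the root of F. CPM uses TMM-scaled library sizes. DESeq2 1.42.0, other filters and size factors, leaving out libraries, a replicate block and removal of a loess trend (span 0.5) on coding length (GENCODE vM21) were alternatives. Scripts were tested on simulated data: of 200 genes changed by 1.5 on the log2 scale, edgeR found 178 of 200 for compartments in the wild-type Acb (16411 genes) and 187 of 200 for genotypes in the Acb heavy fraction (15900 genes). The genotype differences described for the members were smaller than 1.5, and recovery of such differences was not simulated. In a further simulation for that fraction (14901 genes), a coding length trend of a chosen size, not fitted to the data, was put into the rpS6P-/- libraries. Besides the changed genes, edgeR then called 1081 with the trend left in and 9 after its removal. This checks the removal only, since in the real libraries edgeR called 0 of 16227 genes with the trend left in.

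Members named are the highest and lowest of the core, ATPase and Psmd classes in each comparison plus up to 6 called genes of lowest p, and genes described for their role; a minimum of 50 mean reads in every group was added to this rule after values were seen. Members and lists were chosen with earlier results of these data known. Heavy fractions and lysates with the same number come from the same homogenate by the methods of the study, although deviations from group means correlated by only -0.03 to 0.08 (Acb) and -0.06 to 0.04 (DS). Class medians over members are descriptions with no test. Gene positions are GENCODE vM21 (GRCm38), promoter windows RefSeq.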

Additional observations from a re-analysis of the deposited data

How the results depend on the processing

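Removing the trend on coding length moved most. Members called between compartments became 14 (Acb wild-type), 16 (Acb rpS6P-/-) and 14 (DS rpS6P-/-), against 16.5, 15.3 and 14.8% of all genes. Core medians became 0.53, 0.51, 0.56 (DS wild-type) and 0.41. The ATPase and Psmd medians of the Acb of rpS6P-/- mice became 0.27 and 0.36, and the Psmd median of the DS of rpS6P-/- mice 0.11. Between genotypes the removal gave core medians of -0.035 (Acb heavy) and 0.012 (DS lysate), and between regions 1 call in wild-type lysates. It turned Psmb10 (-0.24) and Psmc5 (-0.11) between compartments in the Acb of wild-type and rpS6P-/- mice, Psmc1 (-0.031) in the Acb efficiency test and Psmd10 (0.047) in the genotype by region test. DESeq2 called 4 in the regions of wild-type lysates and 6 between genotypes in the Acb heavy fraction, the latter against 6.72% of all genes. Without a filter beyond 1 read the calls were 1 (wild-type) and 5 (rpS6P-/-) between regions in heavy fractions and 1 between genotypes in the Acb heavy fraction, and Psmc6 (-0.0039, regions, wild-type lysates) and Psmc2 (0.0094, regions, wild-type heavy) changed sign, as they did with filterByExpr (-0.00031 and 0.0072). The replicate block gave 1 call between regions in wild-type heavy fractions and -0.011 for Psmc6 in wild-type lysates, and 24, 31, 25 and 27 members between compartments. It changed no other count by more than 1.5 times; numbers pair heavy fractions with lysates, and between genotypes or regions only the number is shared. Where no share of all genes stands beside a count, the count describes only how calls of members moved with the setting. The cause of these changes was not tested.

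Leaving out 1 library at a time, the calls between regions ranged from 1 to 3 in wild-type lysates, 1 to 2 in rpS6P-/- lysates, 1 to 2 in wild-type and 1 to 5 in rpS6P-/- heavy fractions. Medians ranged from 0.29 to 0.56 (ATPases, compartments, Acb rpS6P-/-; lowest without heavy replicate 3), 0.13 to 0.32 (Psmd, compartments, DS rpS6P-/-; lowest without heavy replicate 1), -0.038 to 0.16 (ATPases, genotypes, Acb lysate), -0.18 to -0.012 (core, genotypes, DS heavy) and -0.064 to 0.0040 (core, genotypes, DS lysate). Single members that changed sign were Psmb10 between compartments (-0.074 to 0.26 and -0.16 to 0.20 in the Acb of wild-type and rpS6P-/- mice), Psmc6 (-0.14 to 0.092) and Psmc1 (-0.046 to 0.099) between regions in wild-type and rpS6P-/- lysates, Psmc2 (-0.17 to 0.19) and Psmc1 (-0.13 to 0.014) in wild-type and rpS6P-/- heavy fractions, Psmc1 in the Acb efficiency test (-0.0092 to 0.17) and Psmc2 in the compartment by region test (-0.025 to 0.31). Of 924 values of single members, 877 kept their direction and their side of the threshold. Limits are the 3 pools per group, the low counts of Psma8, Psmb8, Psmb9, Psmb11 and Psme2b, and reads shared with pseudogenes.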
